A study of Mus musculus with 11 samples.

Results

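The 10 genes described here handle iron in mouse liver: both hepcidin genes (Hamp and Hamp2), the regulators Hfe, Tfr2 and Bmp6, the exporter Slc40a1 and its partner Cp, and the plasma carriers Trf, Hp and Hpx. They were chosen by name, and no measured value enters the rule, as 10 of the 27962 gene names on the array, although earlier results of these data were known when the list was made. All 10 were among the 16702 genes tested, through 11 of their 12 probes that passed a filter on dim spots. The array carries Hamp as Hamp1, Tfr2 as Trfr2 and Hpx as Hpxn, and the last pair was matched through RefSeq accessions.

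The study followed gene expression through liver development on 11 Agilent arrays of 2 colours. The samples were mouse liver at embryonic day 14 (E14, 3 arrays), embryonic day 18 (E18, 3 arrays), postnatal day 5 (P5, 2 arrays, labelled replicates 2 and 3) and postnatal day 56 (P56, 3 arrays). Every sample was labelled with Cy5 and hybridised against 1 commercial RNA of normal adult mouse liver, labelled with Cy3, and dyes were not swapped. The methods name C57BL/6 mice for the embryos whose liver cells were isolated, and the genotype and sex of the animals and the strain at the other stages are not given in the sources used here. The source field names liver throughout, whereas a cell type field gives hepatoblasts for E14, immature hepatocytes for E18 and hepatocytes for P5 and P56, and the extraction text mentions both whole livers and purified cells. The labels call the arrays biological replicates, and with 2 or 3 arrays a stage the precision of every value is limited.

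Iron leaves cells only through ferroportin, the product of Slc40a1, and hepcidin is the liver hormone that binds ferroportin and causes its breakdown. Hepatocytes set hepcidin output from BMP ligands and from the iron load of transferrin, sensed with the help of HFE and transferrin receptor 2. Iron travels in blood on transferrin (Trf), ceruloplasmin (Cp) oxidises it for loading, and haptoglobin (Hp) and hemopexin (Hpx) catch haemoglobin and haem freed from red cells. The fetal liver is also the site of red cell production, which is a major consumer of iron.

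The hepcidin genes lie close together on chromosome 7, and their probes and promoters are shown for comparison. Whether the genes of the pair differed from each other in any comparison of stages was not tested. The Hamp probe lies at chr7:27882251-27882310 and the Hamp2 probe at chr7:27862281-27862340 in the mm7 build given by the array files. Aligned with a shift of 1 base, the probes shared 42 of 59 bases (71.2%), which are in capitals. How far RNA of one gene binds the probe of the other was not tested.
Hamp probe: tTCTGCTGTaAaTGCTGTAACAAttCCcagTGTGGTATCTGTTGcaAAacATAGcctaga
Hamp2 probe: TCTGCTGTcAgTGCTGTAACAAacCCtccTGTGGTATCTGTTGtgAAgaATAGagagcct

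The 250 bases before each start site, from RefSeq in build GRCm38.p6, were searched on both strands for GGCGCC, the core of a BMP-responsive element, and for TTCNNNGAA, a STAT motif. The windows are chr7:30944030-30944279 for Hamp and chr7:30924182-30924431 for Hamp2, both on the minus strand, and matches are in capitals.
Hamp promoter: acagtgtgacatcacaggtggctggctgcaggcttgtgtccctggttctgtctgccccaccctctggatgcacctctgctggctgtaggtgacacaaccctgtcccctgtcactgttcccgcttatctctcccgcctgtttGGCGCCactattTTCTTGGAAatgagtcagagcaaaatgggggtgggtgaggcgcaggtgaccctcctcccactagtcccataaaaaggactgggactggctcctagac
Hamp2 promoter: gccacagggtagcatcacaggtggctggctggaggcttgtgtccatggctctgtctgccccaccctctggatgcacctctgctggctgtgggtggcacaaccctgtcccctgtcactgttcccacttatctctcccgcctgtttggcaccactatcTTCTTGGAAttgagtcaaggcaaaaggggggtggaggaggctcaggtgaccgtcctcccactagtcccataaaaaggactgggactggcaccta

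The windows shared 227 of 247 aligned bases (91.9%) at a shift of 3 bases. TTCTTGGAA stood in both, 97 to 89 bases before the start of Hamp and 94 to 86 bases before that of Hamp2. GGCGCC stood 109 to 104 bases before the Hamp start, and these letters were not found in the Hamp2 window. Of 32851 promoter windows of the same length, 9.59% held GGCGCC and 7.02% held TTCNNNGAA. The motifs do not overlap, and a match is a description of the sequence, not evidence of binding.

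All levels below are log ratios, log2 of the sample over the adult liver reference, so that 0 is the level of the reference and negative values lie below it. A gene was called where its limma adjusted p was under 0.05, with Benjamini-Hochberg adjustment over all 16702 genes. Between E14 and E18, 9 of the 10 iron genes rose and none fell, and Hamp2 was the one not called. Of all genes, 47.3% were called in that comparison, 24.6% higher and 22.8% lower. The arrays of both stages did not overlap for 9 members and for 62.4% of all genes. The median difference of the members was 1.75, against -0.01 over all genes. From E18 to P5, 2 members rose (Tfr2 and Hpx), 1 fell (Trf) and 7 were not called. Of all genes, 13.7% were called there, 7.32% higher and 6.4% lower. The Trf call compared partly saturated spots and was lost in Cy5 alone. Arrays did not overlap for 7 members and for 44% of all genes. From P5 to P56 all 10 members were called, 3 higher (Hamp, Hamp2 and Hfe) and 7 lower, where 45.6% of all genes were called, 20.9% higher and 24.7% lower. Arrays did not overlap for 10 members and for 61.3% of all genes. At P56, 9 members stood above E14 and Bmp6 was not called, where 70.9% of all genes were called, 36.1% higher and 34.8% lower. Arrays did not overlap for 10 members and for 75.7% of all genes. These comparisons share arrays and are not independent of each other. In whole tissue, a change in the number of cells that express a gene and a change in RNA per cell cannot be told apart.

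**Figure D1:**
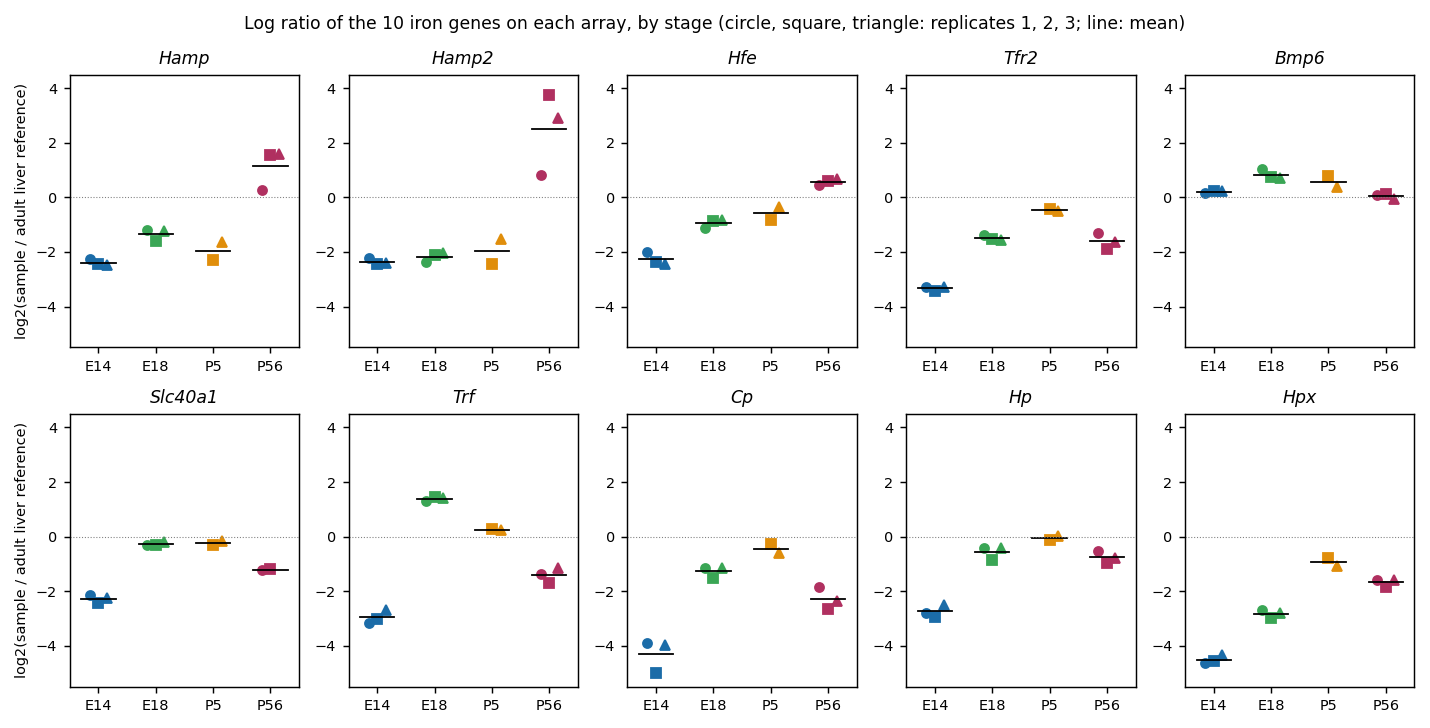
Log ratio against the adult liver reference (vertical axis, log2) of each iron gene on every array, by stage; symbols mark replicate numbers and lines the stage means. Hamp and Hamp2 are highest at P56, while Slc40a1, Tfr2, Trf, Cp, Hp and Hpx reach their highest mean at E18 or P5.

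Hamp encodes hepcidin. Its log ratios were -2.25, -2.44 and -2.48 at E14, and -1.20, -1.61 and -1.23 at E18. The P5 arrays gave -2.28 and -1.65 and the P56 arrays 0.29, 1.56 and 1.60. The E18 arrays lay above the E14 arrays, P5 lay below E18, and the 3 P56 arrays lay above all others. Hamp rose 2.06-fold from E14 to E18 (log2 1.04, 95% interval 0.39 to 1.70, adjusted p = 0.0126), a call that was lost in the table of log ratios that the authors deposited (log2 1.14, adjusted p = 0.0576). The difference of P5 from E18 was -0.62 (interval -1.35 to 0.11, adjusted p = 0.244) and was not called. It was called, at an adjusted p of 0.0372, without P56 replicate 1, an array that enters only the shared spread. From P5 to P56 the gene rose 8.66-fold (log2 3.11, standard error 0.33, adjusted p = 1.82e-05). At P56 it was 11.6-fold above E14 (log2 3.54, adjusted p = 5.66e-07).

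Hamp2, the duplicate gene of hepcidin in mouse, stayed low until P5. Its log ratios were -2.23, -2.45 and -2.39 at E14 and -2.39, -2.10 and -2.05 at E18. At P5 they were -2.45 and -1.51. The arrays of these 3 stages overlapped, and neither E18 against E14 (log2 0.18, interval -1.01 to 1.37, adjusted p = 0.815) nor P5 against E18 (log2 0.19, interval -1.14 to 1.53, adjusted p = 0.869) was called. The P56 arrays gave 0.82, 3.76 and 2.89, all above the earlier stages but far apart from each other. Hamp2 rose 22.2-fold from P5 to P56 (log2 4.47, standard error 0.61, adjusted p = 0.000115) and was 28.7-fold above E14 (log2 4.84, adjusted p = 7.01e-06). The size of these rises depended on single arrays, since without P56 replicate 1 they were 5.30 and 5.68 on the log2 scale and without P56 replicate 2 they were 3.84 and 4.21.

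The separate channels show the same step for both genes. The Cy5 intensity of the Hamp2 probe ran from 199.4 to 365.8 on the 8 arrays up to P5, and was 2351, 20215 and 13823 at P56. Its Cy3 intensity, from the common reference, was 1783, 3454 and 2982 at P56 and between 1025 and 1778 on the other arrays. For Hamp, Cy5 ran from 780.1 to 2432 up to P5 and was 5986, 7309 and 13486 at P56, with Cy3 between 3654 and 6717 throughout. Neither probe was saturated. P56 replicate 2, which had the highest Hamp2 ratio, had the fewest Cy5 spots well above background of all arrays (16790, against 22027 to 25718 on the arrays of E14 to P5). Without it, both genes were still called higher at P56 than at P5.

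**Figure D2:**
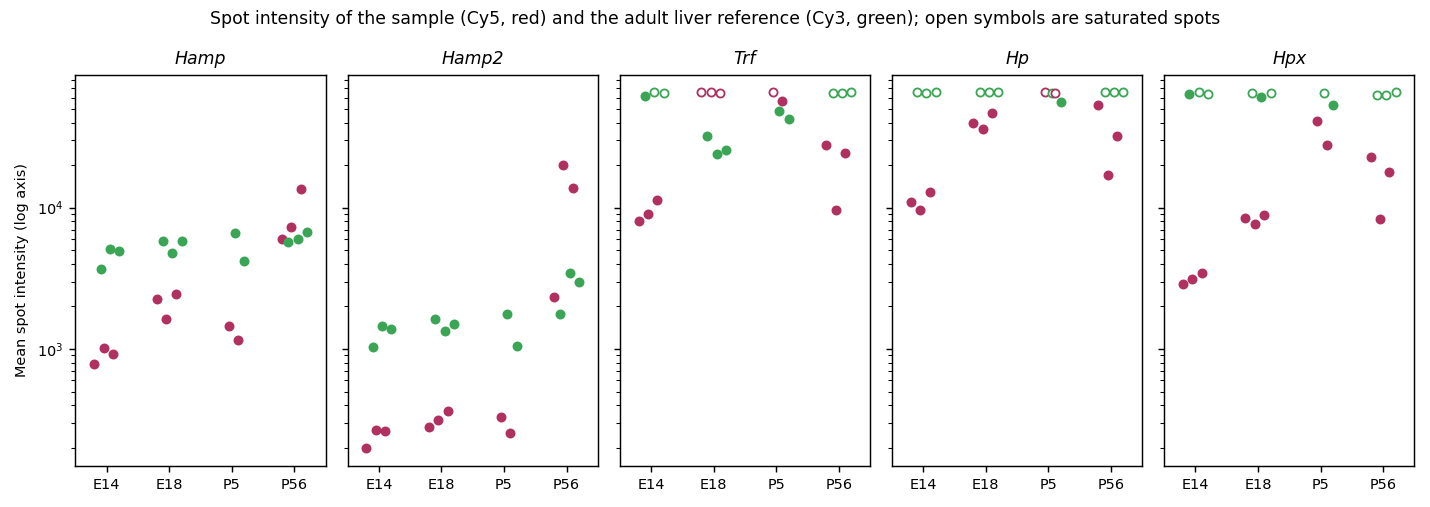
Mean spot intensity (vertical log axis) of 5 iron genes in the sample channel (Cy5, red) and the reference channel (Cy3, green) on every array; open symbols are saturated spots. Hamp2 has Cy5 values of 2351 to 20215 at P56 and under 366 before, and Trf is saturated in Cy5 on all 3 E18 arrays.

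Hfe, whose product helps to sense transferrin iron, was highest at P56, as Hamp and Hamp2 were. Between E18 and P5 the means of Hfe and Hamp went in opposite directions, and neither difference was called. Log ratios of Hfe were -1.99, -2.38 and -2.43 at E14 and -1.12, -0.86 and -0.82 at E18. They were -0.82 and -0.36 at P5 and 0.44, 0.61 and 0.68 at P56. Hfe thus had the order E14, E18, P5, P56 in its means, with E18 and P5 not called apart (log2 0.35, interval -0.03 to 0.72, adjusted p = 0.202). The rise was 2.51-fold from E14 to E18 (adjusted p = 2.34e-05), 2.25-fold from P5 to P56 (adjusted p = 0.000188) and 7.17-fold from E14 to P56 (adjusted p = 1.18e-08). With median centring of the arrays in place of loess, which moves the median of all genes to -0.47 between P5 and P56, the step to P56 was 0.29 (adjusted p = 0.245), or 0.76 relative to that median. A second Hfe probe was dim, with Cy3 between 72.2 and 110.1, and differed by 0.59 from E14 to E18 and by 0.24 from P5 to P56. The Hfe probe used lies at chr13:23069855-23069914 and the dim one at chr13:23068401-23068460 (mm7).

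Tfr2, the second transferrin receptor and an iron sensor of hepatocytes, peaked at P5. Log ratios of Tfr2 were -3.27, -3.41 and -3.27 at E14 and -1.40, -1.54 and -1.56 at E18. The P5 arrays gave -0.43 and -0.49 and the P56 arrays -1.32, -1.88 and -1.64. E14 was lowest and P5 highest with no overlap to any other stage, while E18 and P56 overlapped. Tfr2 rose 3.53-fold from E14 to E18 (adjusted p = 4.41e-07) and 2.06-fold from E18 to P5 (log2 1.04, standard error 0.14, adjusted p = 0.000813). It then fell 2.22-fold to P56 (adjusted p = 6e-05), 3.27-fold above E14 (adjusted p = 2.16e-07). Its probe lies at chr5:136505632-136505691 (mm7).

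Bmp6, a ligand that drives hepcidin transcription, was dim. Cy5 of its probe at chr13:37918503-37918562 (mm7) ran from 47.3 to 210.0 and was well above background on 2 of 3 P56 arrays. Its log ratios were 0.17, 0.22 and 0.24 at E14, 1.03, 0.76 and 0.70 at E18, 0.77 and 0.39 at P5, and 0.09, 0.11 and -0.06 at P56. E18 lay above E14 and overlapped P5. Bmp6 rose 1.53-fold from E14 to E18 (log2 0.62, adjusted p = 0.00119) and fell 1.45-fold from P5 to P56 (adjusted p = 0.00676). The latter call was lost without P5 replicate 2 (log2 -0.34, adjusted p = 0.104). P56 against E14 gave -0.17 (interval -0.43 to 0.10, adjusted p = 0.234). The other Bmp6 probe was not well above background on any array. In adult liver the ligand is known to come mainly from sinusoidal endothelial cells. The medians of 10 endothelial markers were -0.51 to -0.37 at E14, 0.07 to 0.10 at E18, 0.01 to 0.46 at P5 and -0.44 to -0.22 at P56, and their part in the Bmp6 differences was not tested.

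Slc40a1 encodes ferroportin, the iron exporter that hepcidin acts on. Log ratios of ferroportin RNA were -2.14, -2.42 and -2.26 at E14 and -0.30, -0.32 and -0.19 at E18. They were -0.29 and -0.17 at P5 and -1.23 and -1.18 on 2 of 3 P56 arrays, the spot on P56 replicate 3 having been set aside as an outlier. E18 and P5 overlapped at the highest level (log2 difference 0.04, interval -0.21 to 0.28, adjusted p = 0.852), P56 lay below them and E14 lowest. The gene rose 4.01-fold from E14 to E18 (log2 2.00, standard error 0.10, adjusted p = 6.27e-08) and fell 1.96-fold from P5 to P56 (log2 -0.97, adjusted p = 9.09e-05), ending 2.10-fold above E14 (adjusted p = 6.38e-06). Hamp and Slc40a1 rose together between E14 and E18 and moved in opposite directions between P5 and P56. Ferroportin is abundant in macrophages, and 10 of 10 macrophage markers were called higher at E18 than at E14, beside 24.6% of all genes. Their median went from between -2.84 and -2.54 to between -1.38 and -1.14. It was -1.25 and -1.02 at P5 and -2.27 to -1.53 at P56, and its part in the Slc40a1 differences was not tested. The Slc40a1 probe lies at chr1:46145061-46145120 (mm7).

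Cp encodes ceruloplasmin, a copper ferroxidase that works with ferroportin. Cp log ratios were -3.89, -5.00 and -3.97 at E14 and -1.13, -1.53 and -1.16 at E18. They were -0.28 and -0.60 at P5 and -1.84, -2.65 and -2.36 at P56. All stages were separate, with P5 above E18, E18 above P56 and P56 above E14. The rise from E14 to E18 was 8.09-fold (log2 3.02, standard error 0.28, adjusted p = 3.94e-06). P5 against E18 gave 0.83 (interval 0.15 to 1.51, adjusted p = 0.0995), which was not called with all arrays and was called without E14 replicate 2 (adjusted p = 0.0346). Cp then fell 3.59-fold to P56 (adjusted p = 0.000522), where it was 4.01-fold above E14 (adjusted p = 4.19e-05). Its probe lies at chr3:19721093-19721152 (mm7).

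Trf encodes transferrin, the iron carrier of plasma. For transferrin the log ratios were -3.15, -3.03 and -2.70 at E14 and 1.32, 1.46 and 1.40 at E18. They were 0.29 and 0.23 at P5 and -1.37, -1.72 and -1.17 at P56. All 4 stages were separate, with E18 highest, then P5, P56 and E14. The probe, at chr9:102929342-102929957 (mm7), was saturated in Cy5 on all 3 E18 arrays and on 1 of 2 P5 arrays. In Cy3 it was saturated on 2 of 3 E14 and all 3 P56 arrays. From E14 to E18 the log ratio of Trf rose by 4.35 (limma adjusted p = 2.09e-09). In Cy5 Trf rose at least 6.05-fold (mean Cy5 log2 signals 13.40 and 15.99), a bound that carries no test. Such a bound sets the bright stage at its saturated value, on channel signals after loess and Aquantile normalisation, and is open to dye bias since dyes were not swapped. The Cy3 intensity of this probe was 24000 to 32036 at E18, 42346 and 48275 at P5, and 61918 to 65535 at E14 and P56, although the reference RNA was the same. Between E18 and P5, both with saturated Cy5 spots, no fold can be given, and the log ratio of Trf at P5 differed by -1.14 (mean Cy5 log2 signals 15.99 and 15.47). The limma adjusted p was 0.00109. In Cy5 alone that difference was -0.22 (adjusted p = 0.616) and with median centring -0.71 (adjusted p = 0.148), and both lost the call. The log ratio at P56 differed by -1.67 from P5 (adjusted p = 9.1e-06) and by 1.54 from E14 (adjusted p = 1.6e-06). These are differences between partly saturated spots and not folds.

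Hp encodes haptoglobin, which binds free haemoglobin. The log ratios of Hp were -2.78, -2.94 and -2.50 at E14, -0.42, -0.86 and -0.42 at E18, -0.14 and 0.02 at P5, and -0.52, -0.97 and -0.78 at P56. E14 was lowest and P5 highest, and E18 and P56 overlapped. The log ratio rose by 2.18 from E14 to E18 (adjusted p = 5.81e-07). Both P5 spots were saturated in Cy5, and P5 against E18 gave 0.50 in log ratio (interval 0.11 to 0.89, mean Cy5 log2 signals 15.63 and 15.19, adjusted p = 0.084), which was not called. P56 differed from P5 by -0.69 in log ratio (mean Cy5 log2 signals 14.91 and 15.63, adjusted p = 0.00754) and from E14 by 1.99 (adjusted p = 3.66e-07). The probe lies at chr8:108175404-108175463 (mm7). Its reference channel was saturated on 10 of 11 arrays, so that these differences of log ratios are not exact folds.

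Hpx encodes hemopexin, the scavenger of free haem, and rose in both steps up to P5. Hpx log ratios were -4.65, -4.55 and -4.33 at E14 and -2.69, -2.99 and -2.80 at E18. The P5 arrays gave -0.79 and -1.09 and the P56 arrays -1.58, -1.86 and -1.58. The 4 stages were separate, in the order E14, E18, P56, P5. The log ratio rose by 1.68 from E14 to E18 (adjusted p = 8.36e-07) and by 1.89 from E18 to P5 (interval 1.57 to 2.20, adjusted p = 1.49e-05). It fell by 0.73 from P5 to P56 (adjusted p = 0.0015) and ended 2.84 above E14 (adjusted p = 3.1e-09). No spot was saturated in Cy5, and 8 of 11 were in Cy3, so that these are not exact folds either, with the probe at chr7:101648211-101648270 (mm7).

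**Figure D3:**
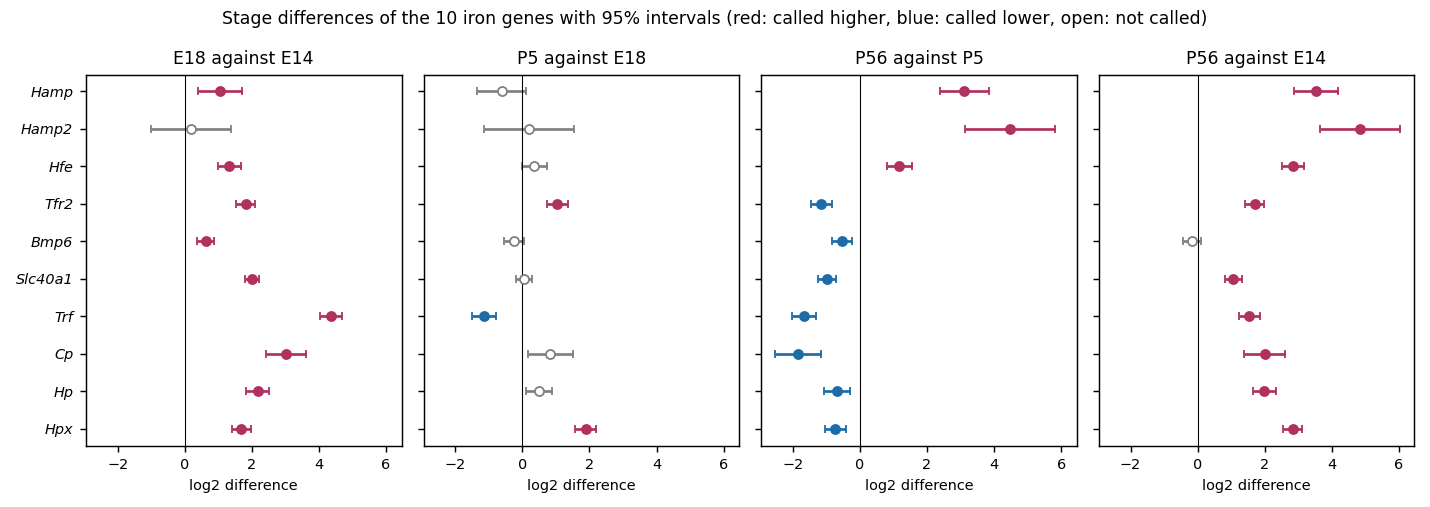
Difference in log ratio (horizontal axis, log2) of each iron gene in the 4 stage comparisons, with 95% intervals from limma; filled symbols were called and open symbols were not. From P5 to P56, Hamp, Hamp2 and Hfe lie to the right of 0 and the other 7 genes to the left.

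Arrays of a stage were scanned in batches. E18 replicate 1 was scanned with the E14 arrays and P5 replicate 3 with the P56 arrays, so that both steps have a value within 1 scan, with a single array on one side. Such a lone array is assumed to vary like the arrays of the other stages, and any call rests on their spread. Against the E14 arrays of its scan, E18 replicate 1 was higher by 0.82 (Bmp6) to 4.28 (Trf) for all members but Hamp2, and Hamp, 1.19 higher, was not called. Hamp2 differed by -0.03. Against P5 replicate 3, the P56 arrays differed by 2.80 for Hamp, 4.00 for Hamp2 and -1.68 for Cp, and Bmp6 was not called (log2 -0.34). E18 and P5, and E14 and P56, shared no scan, so that scan and stage cannot be told apart there.

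The marker lists also differed between stages, and not always in the same direction as these genes. The 9 hepatocyte markers tested were all called higher at E18 than at E14, beside 24.6% of all genes. Their median on each array went from between -2.86 and -2.66 to between 0.45 and 0.56. It was -0.16 and 0.01 at P5 and -0.66 to -0.22 at P56. Saturation of marker spots was not examined here, and its part in the marker medians was not tested. Most iron genes measured are expressed in hepatocytes, and the part of hepatocyte content in their rise was not tested. The 11 erythroid markers had medians of 3.16 to 3.28 at E14, 2.99 to 3.55 at E18, 2.22 and 2.86 at P5 and -0.05 to 0.01 at P56. Of these markers, 11 of 11 were called lower at P56 than at P5, beside 24.7% of all genes. Erythroid transcripts thus stood above the adult reference at E14, where the cell type field gives hepatoblasts. Slc25a37 and Tfrc, described below, moved with them, and the part of red cell precursors in any iron gene was not tested. Among the acute phase genes, which like Hamp, Hp and Hpx can respond to inflammation, medians were -2.85 to -2.54 at E14 and between -1.68 and -1.51 at all later stages. From P5 to P56, where 45.6% of all genes were called, 3 of the 10 were called higher (Orm1, Orm2 and Saa2) and 3 lower (Lbp, Apcs and Itih4). Differences over the list of acute phase genes ran from -1.54 to 2.73. Their part in the iron gene differences was not tested.

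**Figure D4:**
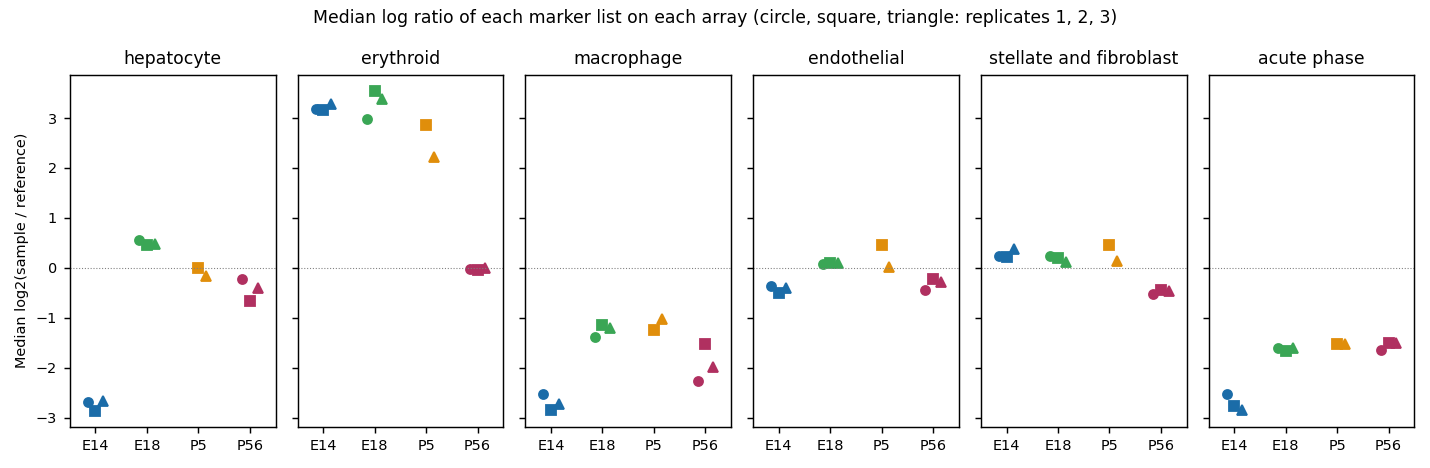
Median log ratio (vertical axis, log2) of the markers of each cell type and of acute phase genes on every array, by stage. Erythroid medians are above 2.2 up to P5 and near 0 at P56, and hepatocyte medians rise between E14 and E18.

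Another 50 genes of iron biology were listed by role, and 47 of them were tested. From E14 to E18, 17 rose and 6 fell (median 0.05), 23 of 47 genes where 47.3% of all genes were called. From E18 to P5, 4 rose and 6 fell, 10 of 47 beside 13.7% of all genes. From P5 to P56, 7 rose and 16 fell, 23 of 47 beside 45.6%, and at P56 against E14, 19 were higher and 15 lower, 34 of 47 beside 70.9%. With median centring in place of loess these splits were 1 and 34 from P5 to P56 and 8 and 25 from E14 to P56. Of all genes called with that setting, 651 of 9514 were higher from P5 to P56 and 2444 of 10683 from E14 to P56.

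Among 16 genes of hepcidin control, 5 rose and 1 fell from E14 to E18, where 47.3% of all genes were called. Hjv, the BMP co-receptor hemojuvelin, rose 3.05-fold (adjusted p = 2.7e-07) and Tmprss6, the protease that cleaves hemojuvelin, 2.67-fold (adjusted p = 1.06e-06), while the receptor gene Bmpr1a fell by 0.52. Neither Hjv nor Tmprss6 was called from P5 to P56 (0.14 and -0.11, adjusted p = 0.369 and 0.506), the interval in which Hamp rose 8.66-fold. Id1, a transcriptional target of BMP signalling, fell by 1.35 between P5 and P56 (adjusted p = 0.00205) while Atoh8 rose by 0.59 (adjusted p = 0.00809). Smad7, an inhibitor of the pathway, was not called in that step (0.04) and was 0.49 higher at P56 than at E14 (adjusted p = 0.00671). Bmp2, the other main BMP ligand for hepcidin, was called in none of the 4 comparisons (-0.03, 0.22, -0.05 and 0.15). The only call from E18 to P5, where 13.7% of all genes were called, was Smad1, lower by 0.53 (adjusted p = 0.0378).

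Among 14 genes of uptake and transport, Slc39a14, an importer of iron not bound to transferrin, rose 4.87-fold from E14 to E18 (adjusted p = 7.8e-08). Slc39a14 was called neither from E18 to P5 nor from P5 to P56, and at P56 stood 4.31-fold above E14 (adjusted p = 4.02e-08). Its relative Slc39a8 was lower by 1.22 at E18 (adjusted p = 8.22e-06). Tfrc, the first transferrin receptor, which developing red cells carry in large amounts, stood at log ratios of 2.78 to 3.67 on all arrays up to P5 and at -0.13 to 0.90 at P56. It fell 7.10-fold from P5 to P56 (adjusted p = 8.36e-06). Slc25a37, the mitochondrial iron importer mitoferrin of red cell precursors, had the largest fall of all listed iron genes, 27.3-fold from P5 to P56 (adjusted p = 1.74e-09), from means of 4.12 to -0.65. The erythroid markers fell in the same step. Slc11a2, the ferrous iron transporter DMT1, was lower by 0.96 (adjusted p = 0.000172), whereas Slc25a28 was higher by 0.60 (adjusted p = 0.00102). From E18 to P5, the ferric reductase gene Cybrd1 fell by 1.13 (adjusted p = 0.0134) and Steap4, another metalloreductase, rose by 0.72 (adjusted p = 0.012).

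Among 8 genes of storage and sensing, only Aco1, the iron regulatory protein 1, rose from E14 to E18 (3.68-fold, adjusted p = 1.01e-06), where 24.6% of all genes were called higher. It then fell by 0.60 to P5 (adjusted p = 0.0323), as did Ftl1, the ferritin light chain, by 0.44 (adjusted p = 0.044). Fth1, the ferritin heavy chain, was called in none of the comparisons and had stage means between -0.13 and -0.02. Log ratios of Fth1 on the E14 arrays ran only from -0.0209 to -0.0176. Spot saturation was described here for the members alone, and its part in the Fth1 ratios was not tested. From P5 to P56, Fbxl5, which targets iron regulatory protein 2 for breakdown, rose by 1.26 (adjusted p = 0.000369), Ftl1 by 0.78 (adjusted p = 0.000516) and Ireb2, iron regulatory protein 2 itself, by 0.39 (adjusted p = 0.0201). Ncoa4, the receptor that delivers ferritin for breakdown, fell by 1.31 in that step (adjusted p = 0.000211). At P56, the iron chaperone gene Pcbp1 was lower than at E14 by 1.56 (adjusted p = 1.42e-06).

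Of 9 genes of haem and haemoglobin salvage, 6 rose and 3 fell from E14 to E18, where 47.3% of all genes were called. Lrp1, the receptor for hemopexin bound to haem, rose 3.20-fold (adjusted p = 2.64e-06), and the biliverdin reductase gene Blvrb fell by 0.48 (adjusted p = 0.0135). Cd163, the macrophage receptor for haptoglobin bound to haemoglobin, rose 1.76-fold from E14 to E18 (adjusted p = 0.00134) and 3.28-fold from E18 to P5 (adjusted p = 0.000142). It was 7.08-fold higher at P56 than at E14 (adjusted p = 1.96e-08). Hmox1, the haem oxygenase that opens the haem ring, rose by 0.83 from E14 to E18 (adjusted p = 0.000386) and fell 5.57-fold from P5 to P56 (adjusted p = 2.18e-07). Slc46a1 rose by 0.81 in that step (adjusted p = 0.000336), and Slc48a1 by 0.42 from E18 to P5 (adjusted p = 0.026).

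**Figure D5:**
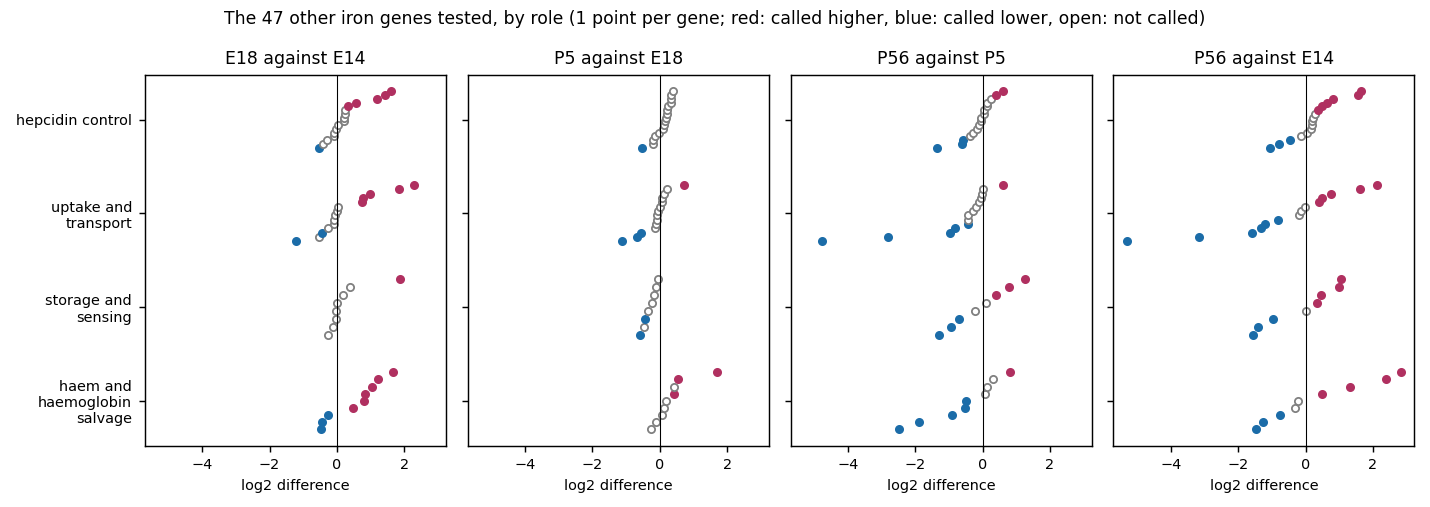
Difference in log ratio (horizontal axis, log2) of the 47 other iron genes tested, grouped by role, in the 4 stage comparisons; each point is a gene, filled where called. The point at -4.77 from P5 to P56 is Slc25a37.

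Over the 11 arrays, the genes whose log ratio ran most like that of Hamp were Rassf7 (Pearson r 0.989), St3gal4 (0.984), 0610007P14Rik (0.984), 1810046J19Rik (0.982) and 1100001G20Rik (0.982). RefSeq names the last of these Wfdc21, and its stage means were -5.25, -3.34, -3.39 and 2.04. Hamp2 ranked 36th in this order (r 0.960) and Hfe 808th (r 0.880). These values describe 4 stages with few arrays each and carry no test.

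The P56 samples and the reference are both adult liver, and the members did not sit at 0 at P56. The stage means were -2.28 for Cp, -1.67 for Hpx, -1.61 for Tfr2, -1.42 for Trf, -1.20 for Slc40a1 and -0.76 for Hp. They were 0.58 for Hfe, 1.15 for Hamp, 2.49 for Hamp2 and 0.05 for Bmp6. What differs between the animals of the reference and of the P56 samples is not given in the sources used here.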

How the data were processed

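The authors deposited the Feature Extraction 9.5.1.1 output of each array (mean spot intensity and local background in Cy5 and Cy3) and, for the series, a table of normalised log2 ratios made with limma. RNA was amplified before labelling. From the intensities, background was corrected here by normexp (offset 50) and dye bias by loess within each array in limma 3.58.1 under R 4.3.3, without scaling between arrays. Control spots were left out and 177 to 356 outlier spots per array were set to missing. Probes had to pass the background flag in Cy5 on every array of at least 1 stage, with at most 1 missing array a stage, and the brightest probe stood for a gene. Each array held 43379 spots, of which 16790 to 25718 were well above background in Cy5. The log ratios of the P56 arrays correlated least with each other (r 0.827 to 0.937, against 0.901 for the P5 pair and 0.969 to 0.990 within the embryonic stages).

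One limma model was fitted to all 11 arrays with stage as its term, with Benjamini-Hochberg adjustment over 16702 genes at 0.05, in 4 comparisons. The fit was tested on data simulated from its own model. They held no saturation or scan effects, so that they do not test the calls given here. The members and lists were chosen with earlier results of these data known. The text names all members and their probes, in each role and comparison the called gene with the largest rise and the largest fall, 15 iron genes named in every case, and the 5 genes most like Hamp. Alternatives covered background correction, normalisation, channel, saturated spots, probe choice, dim spots, scan, replicate number, the methods' t-test and each array left out. Array coordinates are in mm7, for which no annotation was used, and promoters came from RefSeq. Other cell fractions named in the labels were not analysed here. Figures were drawn with matplotlib.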

Additional observations from a re-analysis of the deposited data

How the results depend on the processing

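Directions and calls of the members held in 604 of 640 values from alternative settings and in 434 of 440 values with 1 array left out. Part of this was fixed in advance. Leaving out an array of a stage outside a comparison changes only the shared spread, so that the direction cannot move. The t-tests and the fits to only the arrays of both stages also keep the difference and can move only the call. Differences of 3 members changed sign. Hamp2 at E18 against E14 was -0.0300 with scan as a fixed block, and at P5 against E18 it was -0.0393 in Cy5 alone, -0.00131 in the authors' table and between -0.27 and 0.66 with 1 array left out (without P5 replicate 3 and without P5 replicate 2). Slc40a1 at P5 against E18 was -0.0583 in Cy5 alone and between -0.0205 and 0.10 with the same arrays left out. Bmp6 was 0.33 at P56 against P5 and 0.43 at P56 against E14 in the authors' table. It was called lower at P56 than at E14 with the scanner software's processed signals (-0.53) and with median centring (-0.36).

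Of the members, 3 were called at P5 against E18, but 1 with saturated spots left out (7 members tested), 1 in the authors' table, 0 with the methods' t-test after Benjamini-Hochberg adjustment, and 3 to 4 with 1 array left out. At P56 against P5, 10 were called, 0 with that t-test, and 9 to 10 with 1 array left out. With 1 array left out, 9 were called in each of the other comparisons. Of the other iron genes, 10 were called at P5 against E18, but 5 with processed signals, 3 with median centring, 1 in the authors' table, 6 with scan as a random block, 6 with only the arrays of both stages and 0 with the t-test. With 1 array left out the count ran from 4 to 11, with 5 without E18 replicate 2 and 4 without E18 replicate 3 or P5 replicate 3. At P56 against P5, 23 were called, but 35 with median centring, 14 in the authors' table, 15 with only the arrays of both stages and 1 with the t-test, and 19 to 23 with 1 array left out. At E18 against E14 that range was 19 to 25, and at P56 against E14 33 to 34. Tfr2 at P5 against E18 (adjusted p = 0.0708) and Hp at P56 against P5 (adjusted p = 0.0682) were not called in the authors' table. Over all genes at P5 against E18, 1634 were called with processed signals, 1474 with median centring and 1689 with scan as a random block. Only the arrays of both stages gave 1635 there and 4995 at P56 against P5, where median centring gave 9514. Without E18 replicate 2, E18 replicate 3 or P5 replicate 3, the counts at P5 against E18 were 1390, 1268 and 928. The causes were not tested.

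Median centring moves the median of all genes to -0.47 at P56 against P5, where it leaves 651 of 9514 calls higher, and to -0.328 at P56 against E14. Relative to these medians Hamp was higher by 3.09 and 3.41, Hamp2 by 4.41 and 4.67, and Bmp6 differed by -0.32 and -0.03. The difference of Trf between E14 and E18 was 2.69 in Cy5 alone, the lowest of its alternative values.

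Replicate numbers did not pair the samples: of 15 pairs of arrays with the same number, 1 had deviations correlated above 0.1 (-0.306 to 0.187), and the arrays share only a number. With replicate number as a block, 5 members were called at P5 against E18 (Cp and Hp besides) and 6 other iron genes were, beside 1735 of all 16702 genes. Hamp2 was -0.10.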
